A study of Mus musculus with 3 samples.

Results

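Ion transporters and water channels of the colonocyte were followed across 3 arrays of mouse distal colon. The 10 genes were chosen by name, with no threshold on their values: *Atp12a*, *Aqp4*, *Aqp8*, *Slc26a3*, *Slc9a3*, *Slc12a2*, *Cftr*, *Car1*, *Car4* and *Scnn1a*. Each was measured by 1 probe set with a single gene symbol, so 10 of the 19938 genes on the array with such a symbol are described. All animals were male BALB/c mice, 10 to 12 weeks old. WT normal mice drank water, WT colitis mice drank 3% dextran sulfate sodium (DSS), a polymer that injures the colonic epithelium, for 7 days, and IL-4Rα-/- colitis mice, littermates that lack the IL-4 receptor α subunit in every cell, drank the same DSS. Each group gave 1 pool of RNA, from 4 mice for WT normal, 3 for WT colitis and 6 for the IL-4Rα-/- pool, and each pool was run on 1 array. There are therefore no replicate arrays, so a difference between pools carries no error and no p-value, and the number of arrays limits every value below. No array of untreated IL-4Rα-/- mice was analysed here, so the genotype and the response to DSS cannot be told apart in the IL-4Rα-/- pool. The disease activity index of the pooled mice, a score of stool and bleeding, ran from 0 to 3 in that pool, from 3 to 4 in WT colitis and was 0 in WT normal. Body weight, in the percentages that the labels give without their base, was 95.1 to 100.8%, 78.0 to 83.8% and 97.6 to 104.0%, in the same order.

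The colon absorbs salt and water at its surface and secretes chloride and water from its crypts. At the apical membrane of surface cells, sodium enters through the exchanger NHE3 and through epithelial sodium channels, and chloride enters through the exchanger DRA in return for bicarbonate that carbonic anhydrases help to form. Water follows through aquaporins, and the colonic proton pump recovers potassium. In the crypt, the cotransporter NKCC1 loads chloride across the basolateral membrane and the CFTR channel releases it into the lumen. Loss of salt and water absorption is a known feature of the diarrhea of colitis.

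The deposited values are log2 signal levels, so a difference of 1 is 2-fold, and this was the threshold used to count genes. Values given in threes are in the order WT normal, WT colitis, IL-4Rα-/- colitis. The 3 arrays had medians of 4.11, 4.18 and 4.11 over all probe sets on the WT normal, the WT colitis and the IL-4Rα-/- array. Probe sets of olfactory and vomeronasal receptors, which the colon should not express, gave a guide to background, with a 95th percentile of 3.50. All 10 genes lay above that level on each array. Exact ties are common in the deposited values: 13113 of the 19938 genes (65.8%) had the same value to 2 decimals in WT normal and the IL-4Rα-/- pool, and 9133 had it on all 3 arrays. An exact tie is thus no sign of a special agreement. *Il4ra*, the targeted gene, had a log2 level of 5.69 in the WT normal pool, 6.63 in the WT colitis pool and 4.76 in the IL-4Rα-/- pool; whether its probes lie in the deleted part is not known here. One array stands apart. All 8 measured markers of the exocrine pancreas were above background in WT normal, whereas 5 of the 8 were at or below it on each colitis array, so comparisons with WT normal are set beside the comparison of the 2 colitis arrays, which does not use it.

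In WT colitis, 3 of the 10 transport genes were over 2-fold lower than in WT normal and 0 were higher. Over all 19938 genes, 0.456% were over 2-fold lower and 1.16% higher. In the IL-4Rα-/- pool, 3 of the 10 were over 2-fold higher than in WT colitis and 0 were lower, against 0.271% and 0.908% of all genes. Compared with WT normal, 0 of the 10 were past 2-fold in the IL-4Rα-/- pool in either direction, against 0.186% of all genes higher and 0.336% lower. The median log2 difference of the 10 genes was -0.475 for WT colitis minus WT normal, 0.43 for the IL-4Rα-/- pool minus WT colitis and 0.015 for the IL-4Rα-/- pool minus WT normal, and the median over all genes was 0 in each. The first and second comparisons both use the WT colitis array, so a low value on that array alone enters both. For 8 of the 10 genes the WT colitis array had the lowest of the 3 values, compared with 6.61% of all genes and 9.39% of the 12421 genes whose mean was above background. These are bulk samples, in which fewer cells of a type and less RNA per cell cannot be told apart.

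**Figure D1:**
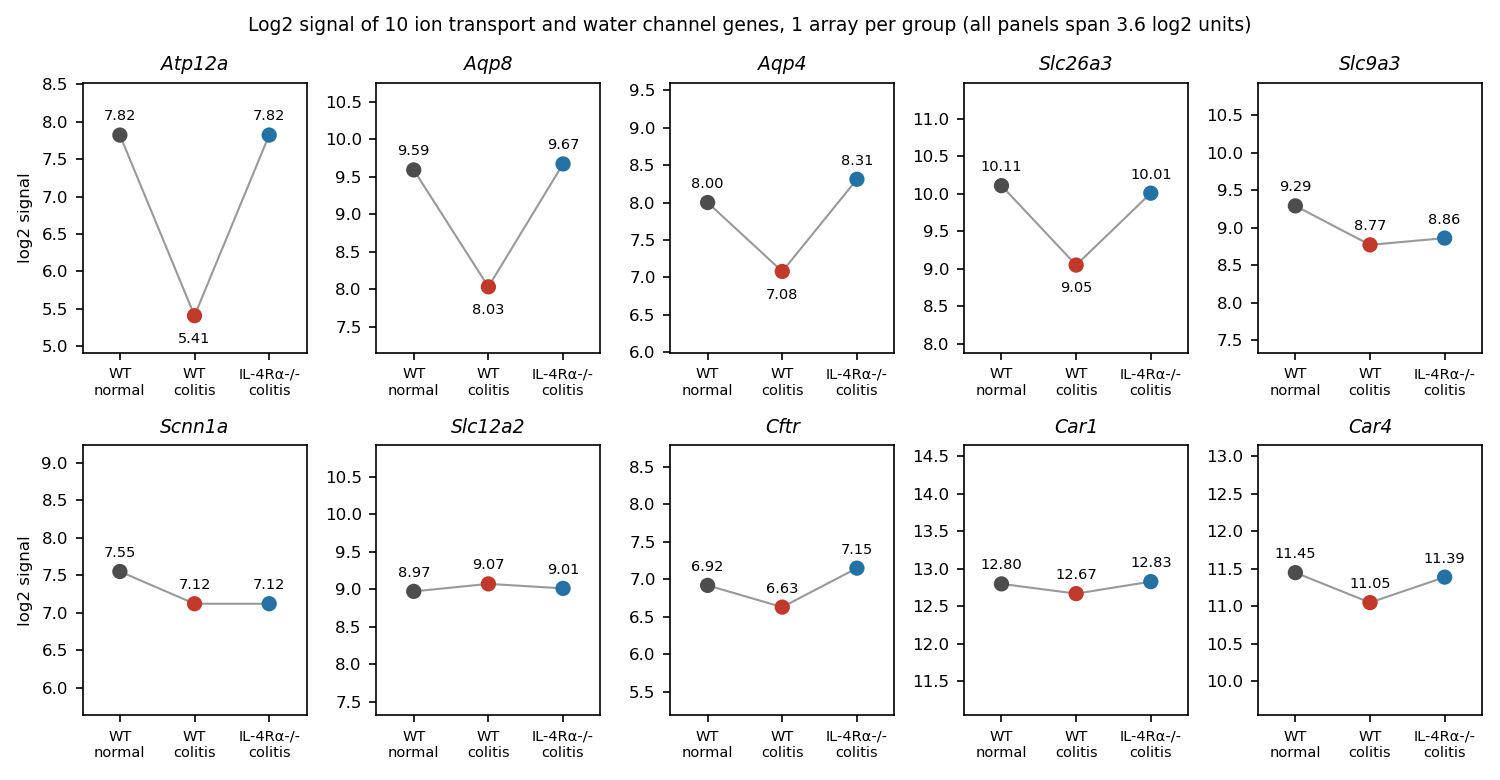
Log2 signal (y axis, all panels drawn over the same span) of the 10 genes in each pool, with 1 point for each array. The WT colitis point is the lowest in 8 panels, by 2.41 for Atp12a, while the points of Slc12a2 and Car1 lie within 0.16 of each other.

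*Atp12a* encodes the catalytic subunit of the colonic proton pump, an apical P-type ATPase that takes up potassium in exchange for protons. Its log2 signal was 7.82 in the WT normal pool, 5.41 in the WT colitis pool and 7.82 in the IL-4Rα-/- pool. The WT colitis value was thus the low one, 5.31-fold below each of the others. Among all genes it ranked 21 from the lowest for WT colitis minus WT normal and 3 from the highest between the colitis arrays. Under each alternative scaling the difference stayed past 2-fold, from -2.51 to -1.79 for WT colitis minus WT normal and from 1.79 to 2.51 for the IL-4Rα-/- pool minus WT colitis.

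Related pump genes were set beside it. *Atp4a* and *Atp4b*, the subunits of the gastric proton pump, had log2 levels of 2.72 and 2.92 on all 3 arrays, below background. *Atp1b1*, a β subunit of the sodium pump that drives sodium absorption from the basolateral side, had 11.39 in the WT normal pool, 11.13 in the WT colitis pool and 11.39 in the IL-4Rα-/- pool. Its lowest value was thus also in WT colitis, by 0.26 on the log2 scale, which is within 2-fold. Another β subunit, *Atp1b3*, had 7.78, 8.72 and 8.33, with its highest value in WT colitis, and was 1.92-fold above WT normal there. *Fxyd5*, a small modulator of the sodium pump, had 8.49, 9.28 and 8.49, again with WT colitis as the high array. Of 14 measured genes of this group, *Atp12a* was the 1 past 2-fold in WT colitis, and it was also the 1 past 2-fold between the colitis arrays.

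*Aqp8* encodes a water channel of the colonocyte that also passes ammonia and hydrogen peroxide. Its log2 signal was 9.59 in the WT normal pool, 8.03 in the WT colitis pool and 9.67 in the IL-4Rα-/- pool. WT colitis was 2.95-fold below WT normal, and the IL-4Rα-/- pool was 3.12-fold above WT colitis and within 0.08 of WT normal on the log2 scale. *Aqp4*, the water channel of the basolateral membrane, had 8.00, 7.08 and 8.31. It was 1.89-fold below WT normal in the WT colitis pool, just short of the threshold, and 2.35-fold higher in the IL-4Rα-/- pool than in WT colitis. Its value in the IL-4Rα-/- pool was the highest of the 3 arrays, 0.31 above WT normal. With quantile normalization its difference between WT colitis and WT normal was -1.02, past 2-fold.

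Among the 12 aquaporins measured, *Aqp8* and *Aqp4* were the 2 past 2-fold in any comparison. Of the other 10, 8 had the same value on all 3 arrays and 4 were at or below background on each. *Aqp1*, the channel of endothelium and red cells, had log2 levels of 6.41 in the WT normal pool, 6.35 in the WT colitis pool and 6.05 in the IL-4Rα-/- pool. *Aqp11*, an intracellular aquaporin, had 5.96, 6.00 and 5.96. *Aqp3*, a glycerol and water channel of basolateral membranes, had 3.53 on each array, close to background. *Aqp12*, which is known from pancreatic acinar cells, had 3.56 on each array, although other pancreatic transcripts were high in WT normal.

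*Slc26a3* encodes DRA, the apical exchanger that takes up chloride against bicarbonate and whose loss causes chloride diarrhea. Its log2 signal was 10.11 in the WT normal pool, 9.05 in the WT colitis pool and 10.01 in the IL-4Rα-/- pool. The WT colitis value was 2.08-fold below WT normal, just past the threshold, and the IL-4Rα-/- pool was 1.95-fold above WT colitis, just short of it. Its place on either side of 2-fold moved with the scaling. The difference for WT colitis minus WT normal ran from -1.13 to -0.93 over the alternatives, and that for the IL-4Rα-/- pool minus WT colitis from 0.92 to 1.03. *Slc9a3* encodes NHE3, which takes up sodium against protons and works in parallel with DRA. Its log2 signal was 9.29 in the WT normal pool, 8.77 in the WT colitis pool and 8.86 in the IL-4Rα-/- pool, so both colitis arrays lay below WT normal, by 0.52 and 0.43. The 2 exchangers therefore had unlike values in the IL-4Rα-/- pool, where *Slc26a3* was within 0.10 of WT normal and *Slc9a3* was within 0.09 of WT colitis. *Slc9a3r1*, the scaffold NHERF1 that binds NHE3 and CFTR, had 8.63, 8.18 and 8.20, and *Ezr*, the ezrin linker between such scaffolds and actin, had 9.46, 8.95 and 9.16. Like *Slc9a3*, *Slc9a3r1* was nearer to WT colitis than to WT normal in the IL-4Rα-/- pool.

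Promoter sequences are shown for *Aqp8* and *Slc26a3*, which were both over 2-fold lower in WT colitis, and for *Slc9a3*, which was not, to set the start sites of transport genes with unlike profiles side by side. They are the 250 bases before the annotated start, from RefSeq on build GRCm38.p6, all on the plus strand, written 5′ to 3′. Capitals mark each CpG dinucleotide and, in *Slc26a3*, the TATAAA letters that begin 30 bases before the start.
Aqp8: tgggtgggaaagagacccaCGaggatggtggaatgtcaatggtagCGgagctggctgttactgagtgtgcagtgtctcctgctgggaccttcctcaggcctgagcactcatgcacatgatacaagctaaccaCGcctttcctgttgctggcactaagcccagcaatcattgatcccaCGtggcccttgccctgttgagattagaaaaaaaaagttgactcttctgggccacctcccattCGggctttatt
Slc26a3: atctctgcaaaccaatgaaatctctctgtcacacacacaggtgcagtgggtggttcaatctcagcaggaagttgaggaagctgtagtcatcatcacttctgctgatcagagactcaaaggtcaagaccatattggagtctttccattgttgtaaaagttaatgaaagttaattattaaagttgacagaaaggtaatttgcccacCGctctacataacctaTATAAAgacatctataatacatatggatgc
Slc9a3: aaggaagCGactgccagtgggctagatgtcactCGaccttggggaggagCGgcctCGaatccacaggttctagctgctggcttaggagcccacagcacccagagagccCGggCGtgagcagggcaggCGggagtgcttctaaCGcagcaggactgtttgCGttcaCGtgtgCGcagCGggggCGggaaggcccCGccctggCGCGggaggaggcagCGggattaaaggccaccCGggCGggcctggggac
The *Aqp8* promoter lies at chr7:123462044-123462293 and holds 5 CpG, close to the median of 6 over 32851 promoters. That of *Slc26a3*, at chr12:31437969-31438218, holds 1 CpG and is 38.8% G and C, and 92.1% of all promoters have at least as many CpG. That of *Slc9a3*, at chr13:74121163-74121412, holds 19 CpG, a count that 19.7% of promoters reach. The table also held the promoters of *Car4* and *Cftr*, with 11 and 30 CpG, so 5 of the 10 genes matched. Of these 5, 1 had TATAAA on the given strand in the last 40 bases before the start, compared with 2.31% of all promoters. Motifs were searched on both strands of the 300-base windows, from 250 bases before to 50 after the start. The STAT6-type motif, the form bound by the main transcription factor of the IL-4 receptor, was in 0 of the 5 and in 6.95% of all promoters. The STAT-type motif TTCNNNGAA (8.3% of all promoters), the HNF4-type motif CAAAGTCCA (0.475%) and the CDX2-type motif TTTATG (11.9%) were also in 0 of the 5. The STAT6-type motif has the same outer letters as the STAT-type motif with 1 more free base between them, so a stretch that matches one need not match the other. The search says only that these letters are not in these windows.

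*Scnn1a* encodes the α subunit of the epithelial sodium channel, the aldosterone-regulated route of sodium uptake in the distal colon. It had a log2 level of 7.55 in the WT normal pool, 7.12 in the WT colitis pool and 7.12 in the IL-4Rα-/- pool, so both colitis arrays were 1.35-fold below WT normal. The β subunit *Scnn1b* had 4.80 and the γ subunit *Scnn1g* 4.40 on all 3 arrays. The 3 subunits were thus each the same on the 2 colitis arrays. *Nr3c2*, the mineralocorticoid receptor, had 7.57, 7.54 and 7.73, and *Sgk1*, a kinase induced by aldosterone that raises channel activity, had 6.63, 6.63 and 6.59. *Nedd4l*, the ubiquitin ligase that removes the channel from the membrane, had 8.28, 8.81 and 8.63, with both colitis arrays above WT normal. *Hsd11b2*, which protects the mineralocorticoid receptor from glucocorticoids, had 9.95, 10.19 and 9.95. Of 10 measured sodium channel and sodium/hydrogen exchanger genes, 0 were past 2-fold in any comparison. *Slc9a2*, the exchanger NHE2, had 8.54 on each array and *Slc9a8*, NHE8, had 7.19.

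Of the genes of chloride secretion, *Slc12a2*, which encodes NKCC1, the cotransporter that brings sodium, potassium and chloride into the crypt cell, had log2 levels of 8.97 in the WT normal pool, 9.07 in the WT colitis pool and 9.01 in the IL-4Rα-/- pool. It was the 1 gene of the 10 with its highest value in WT colitis, and its 3 values lay within 0.10. *Cftr*, the apical chloride channel, had 6.92 in the WT normal pool, 6.63 in the WT colitis pool and 7.15 in the IL-4Rα-/- pool. It was 1.22-fold below WT normal in the WT colitis pool and 1.43-fold higher in the IL-4Rα-/- pool than in WT colitis, both under the threshold. Of the 8 cation-chloride cotransporters measured, 0 were past 2-fold in any comparison. Of 18 anion channels and exchangers, *Slc26a3* and *Ano1*, described next, were the 2 over 2-fold lower in WT colitis.

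Potassium channels of the basolateral membrane keep the voltage that drives chloride out of the cell. *Kcne3*, the subunit that holds the KCNQ1 channel open, had a log2 level of 9.23 in the WT normal pool, 7.79 in the WT colitis pool and 8.60 in the IL-4Rα-/- pool. WT colitis was 2.71-fold below WT normal, and the IL-4Rα-/- value lay between the other two. *Kcnq1* itself had 7.61, 6.98 and 7.18, and *Kcnn4*, the calcium-activated channel, had 6.96, 6.08 and 6.58. In these 3 genes WT colitis was the lowest array and WT normal the highest. *Ano1*, a calcium-activated chloride channel, had 8.16, 7.09 and 7.72, and was 2.10-fold below WT normal in the WT colitis pool, or within 2-fold when set to epithelial markers. Of 13 potassium channel genes, 1 was over 2-fold lower in WT colitis and 0 were past 2-fold between the colitis arrays.

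*Car1*, a cytosolic carbonic anhydrase abundant in colonocytes, had log2 levels of 12.80 in the WT normal pool, 12.67 in the WT colitis pool and 12.83 in the IL-4Rα-/- pool. These values lie near the top of the array's range, where its highest signals were 13.29 to 13.34. *Car4*, the membrane-bound carbonic anhydrase of the apical surface, had 11.45, 11.05 and 11.39, and WT colitis was 1.32-fold below WT normal. *Car2*, the other main cytosolic form, had 9.56, 9.26 and 9.80. All 3 had their lowest value in WT colitis, within 1.5-fold of the others, although *Car1* was level with WT normal when differences were set to epithelial markers. *Car8*, an isoform without catalytic activity, had 7.66, 8.31 and 7.66. Of 16 carbonic anhydrases, 1 was past 2-fold in any comparison. This was *Car3*, the form of muscle and fat, with 8.83 in the WT normal pool, 6.85 in the WT colitis pool and 6.50 in the IL-4Rα-/- pool. It was 3.94-fold lower in WT colitis and 5.03-fold lower in the IL-4Rα-/- pool than in WT normal, so it was low on both colitis arrays and did not share the profile of *Car1*, *Car2* and *Car4*.

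**Figure D2:**
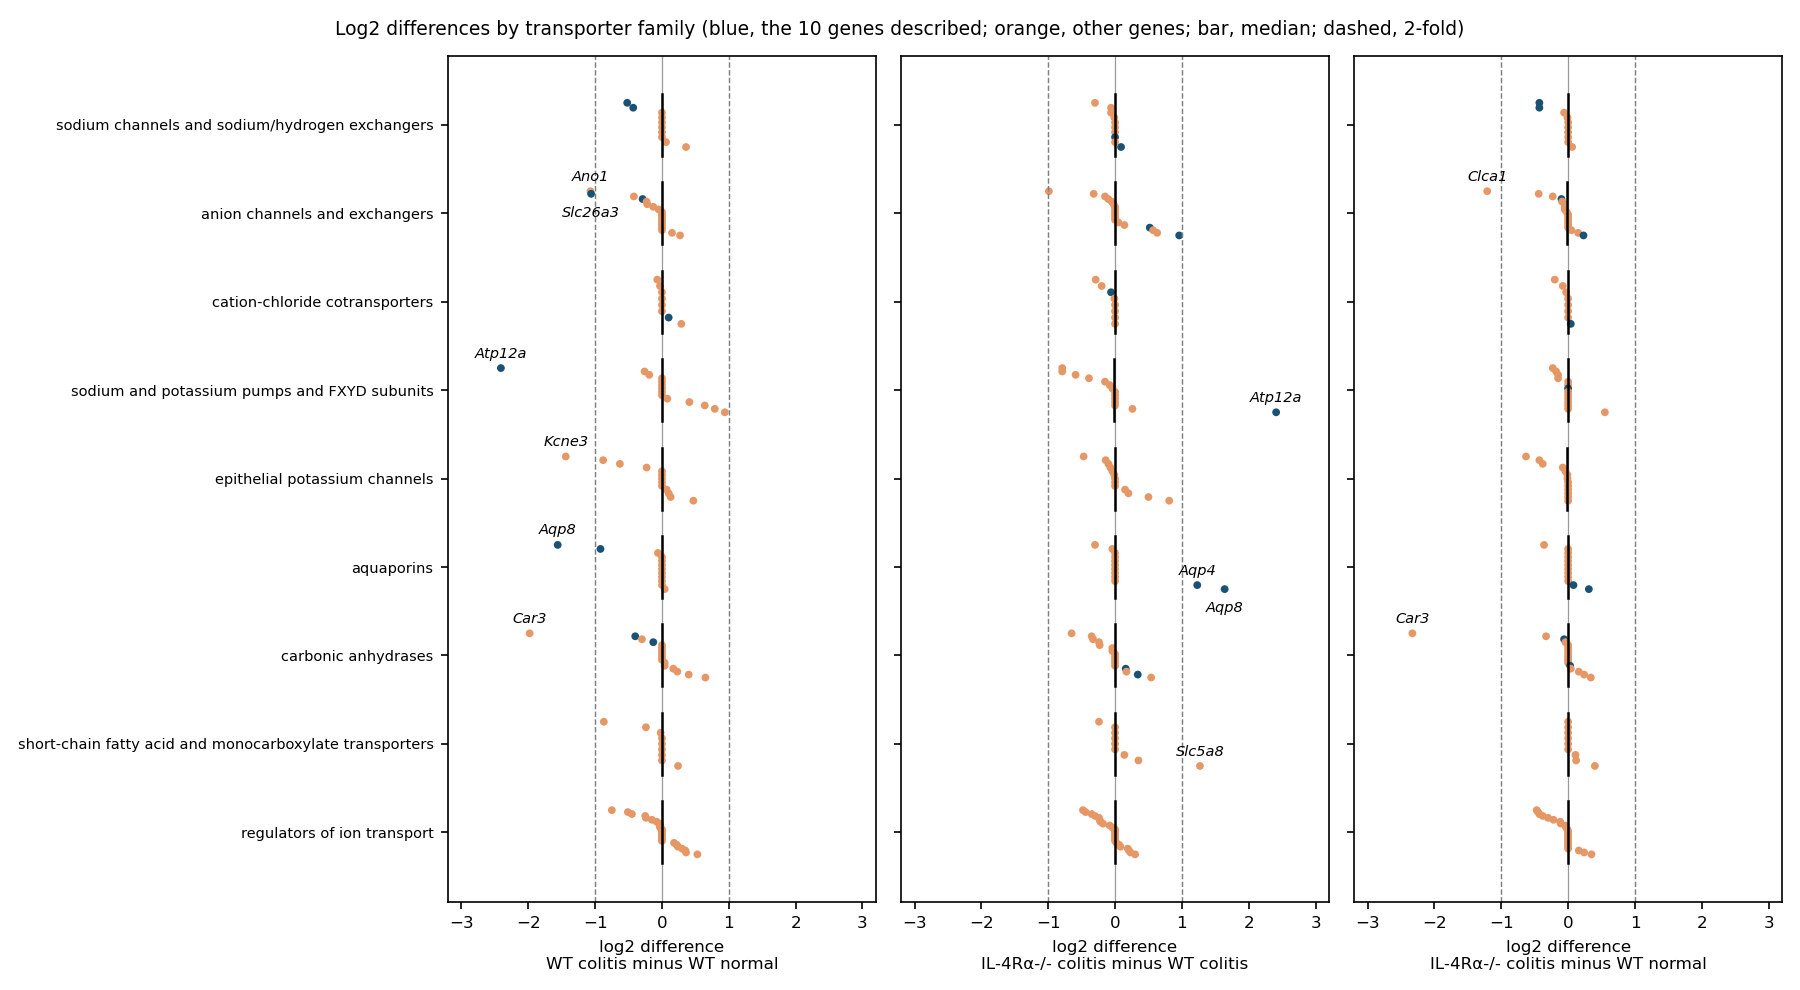
Log2 difference (x axis) of each measured gene in 9 groups of ion and water transport genes (y axis) in the 3 comparisons, with the 10 genes described here in blue, other genes in orange, the group median as a bar and 2-fold as dashed lines. Atp12a and Aqp8 lie past 2-fold on opposite sides in the left and middle panels, Car3 lies past it in the left and right panels, and every group median is within 0.02 of 0.

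The wider groups hold 124 measured genes, 114 of them outside the 10. Among the 114, 3 were over 2-fold below WT normal in the WT colitis pool (2.63%) and 0 higher, against 0.456% of all genes lower and 1.16% higher. Between the colitis arrays, 1 was over 2-fold higher in the IL-4Rα-/- pool (0.877%) and 0 lower, against 0.271% and 0.908% of all genes. Against WT normal, 2 were lower in the IL-4Rα-/- pool (1.75%) and 0 higher, with 0.336% and 0.186% of all genes. In a group of 114 genes, shares of this size rest on very few genes. The 3 lower genes in WT colitis were *Kcne3*, *Ano1* and *Car3*, and the 1 higher gene was *Slc5a8*, the sodium-coupled transporter that takes up butyrate and other short-chain fatty acids. *Slc5a8* had a log2 level of 9.77 in the WT normal pool, 8.90 in the WT colitis pool and 10.17 in the IL-4Rα-/- pool, 2.41-fold above WT colitis. By contrast, *Slc16a1*, the proton-coupled monocarboxylate carrier, had 8.42, 8.40 and 8.54, and its chaperone *Bsg* had 9.73 on each array. The 2 genes lower in the IL-4Rα-/- pool than in WT normal were *Car3* and *Clca1*, a secreted goblet cell protein that modulates chloride conductance, with 12.31 in the WT normal pool, 12.09 in the WT colitis pool and 11.10 in the IL-4Rα-/- pool. Of 24 regulators of ion transport, 0 were past 2-fold in any comparison. The guanylin peptides, which stimulate chloride secretion through the receptor *Gucy2c*, were highest in WT normal: *Guca2a* had 10.86, 10.61 and 10.39, and *Guca2b* had 10.18, 10.03 and 9.80, while *Gucy2c* had 8.88 on each array. In 114 genes, 55 had the same value in WT normal and WT colitis, so a group median of 0 says little about the genes that did differ.

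**Figure D3:**
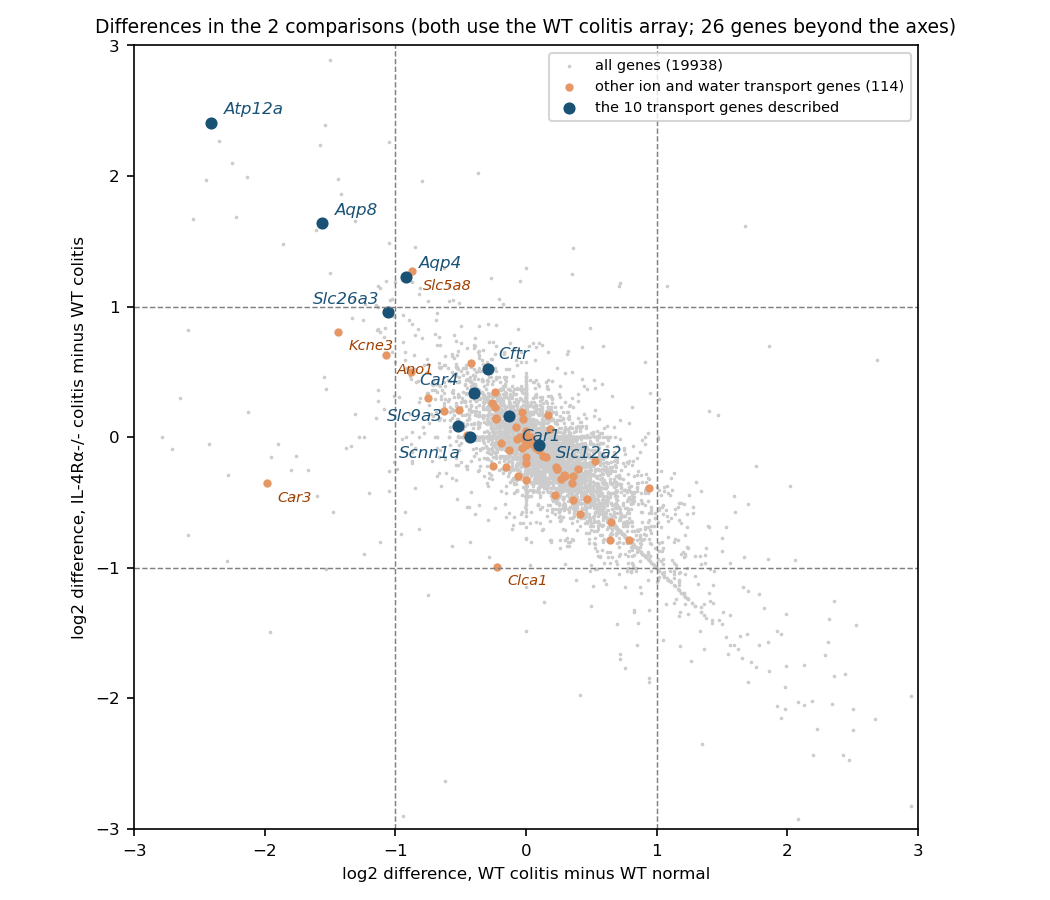
Each of 2 differences on the log2 scale, WT colitis minus WT normal along x and the IL-4Rα-/- pool minus WT colitis along y, for 19938 genes in grey, 114 other transport genes in orange and the 10 described here in blue, with dashed lines at 2-fold and 26 genes beyond the axes. Both axes use the WT colitis array, so points low on that array fall in the upper left, where Atp12a, Aqp8, Aqp4 and Slc26a3 lie, while Slc9a3 and Scnn1a lie left of 0 at a height of 0.09 and 0.

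The genes closest in profile were found for each of the 4 genes past 2-fold in any comparison, by the Euclidean distance between the pair of differences that uses the WT colitis array. This measure rests on 3 arrays. Nearest to *Atp12a* were *Eno3*, a muscle enolase, at a distance of 0.152, *Sval1* (0.349) and *Hoxb13* (0.442). *Hoxb13*, the homeobox gene of the most posterior gut, had log2 levels of 7.92 in the WT normal pool, 5.47 in the WT colitis pool and 7.44 in the IL-4Rα-/- pool. The other HOX13 genes, which were looked at after that value had been seen, had 5.39, 5.19 and 5.46 for *Hoxa13* and 5.70, 5.66 and 6.31 for *Hoxd13*, and *Hoxc13* was below background. Whether the stretch of colon taken differed between pools was not tested. Nearest to *Aqp8* were *Gm15401* (0.0707), *Aldh1l1* (0.251) and *Cbr2* (0.261). Nearest to *Aqp4* were 2 apical transporters, *Slc15a1*, the peptide transporter PEPT1, and *Slc5a8*, both at 0.064, followed by *Cyp2f2* (0.0894). *Slc15a1* had 8.23 in the WT normal pool, 7.36 in the WT colitis pool and 8.55 in the IL-4Rα-/- pool. Nearest to *Slc26a3* were *Sycn* (0.0424), *S100a14* (0.0583) and *Fads2*, a fatty acid desaturase (0.0806).

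Cell type markers were set beside these values. Of 12 general epithelial markers, 0 were past 2-fold in any comparison, with medians of -0.13 for WT colitis minus WT normal and -0.01 between the colitis arrays, and all 12 were above background on each array. Their summed linear signal was 17922.8 in the WT normal pool, 16522.0 in the WT colitis pool and 16548.4 in the IL-4Rα-/- pool. *Epcam*, the epithelial adhesion molecule, had log2 levels of 10.07, 10.16 and 10.28, and the largest differences in this list were those of *Krt18* (9.60, 9.09 and 9.03), *Cdx2* (7.17, 7.59 and 7.48), *Cldn4* (6.63, 6.90 and 6.57) and *Krt19* (11.68, 11.36 and 11.48). Of 12 surface colonocyte markers that are not transporters, 1 was over 2-fold higher in WT colitis and 0 lower, with a median of 0.055, and between the colitis arrays 0 were past 2-fold. The 1 gene was *Dhrs9*, a retinol dehydrogenase, with 5.60, 7.36 and 7.14. *Krt20*, the keratin of differentiated surface cells, had 9.94, 10.11 and 10.14. In the same list, *Vil1* (9.18, 8.95 and 9.06) and *Cdhr2* (8.80, 8.60 and 8.60) were below WT normal on both colitis arrays. Differences of the list for WT colitis minus WT normal ran from -0.23 to 1.76. The summed linear signal of the 12 surface markers was 19250.1, 19981.9 and 19755.5. With the median difference of the epithelial markers subtracted, a setting added after the values had been seen, *Slc26a3* was at -0.93 for WT colitis minus WT normal and thus within 2-fold, whereas *Atp12a* and *Aqp8* remained past it.

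**Figure D4:**
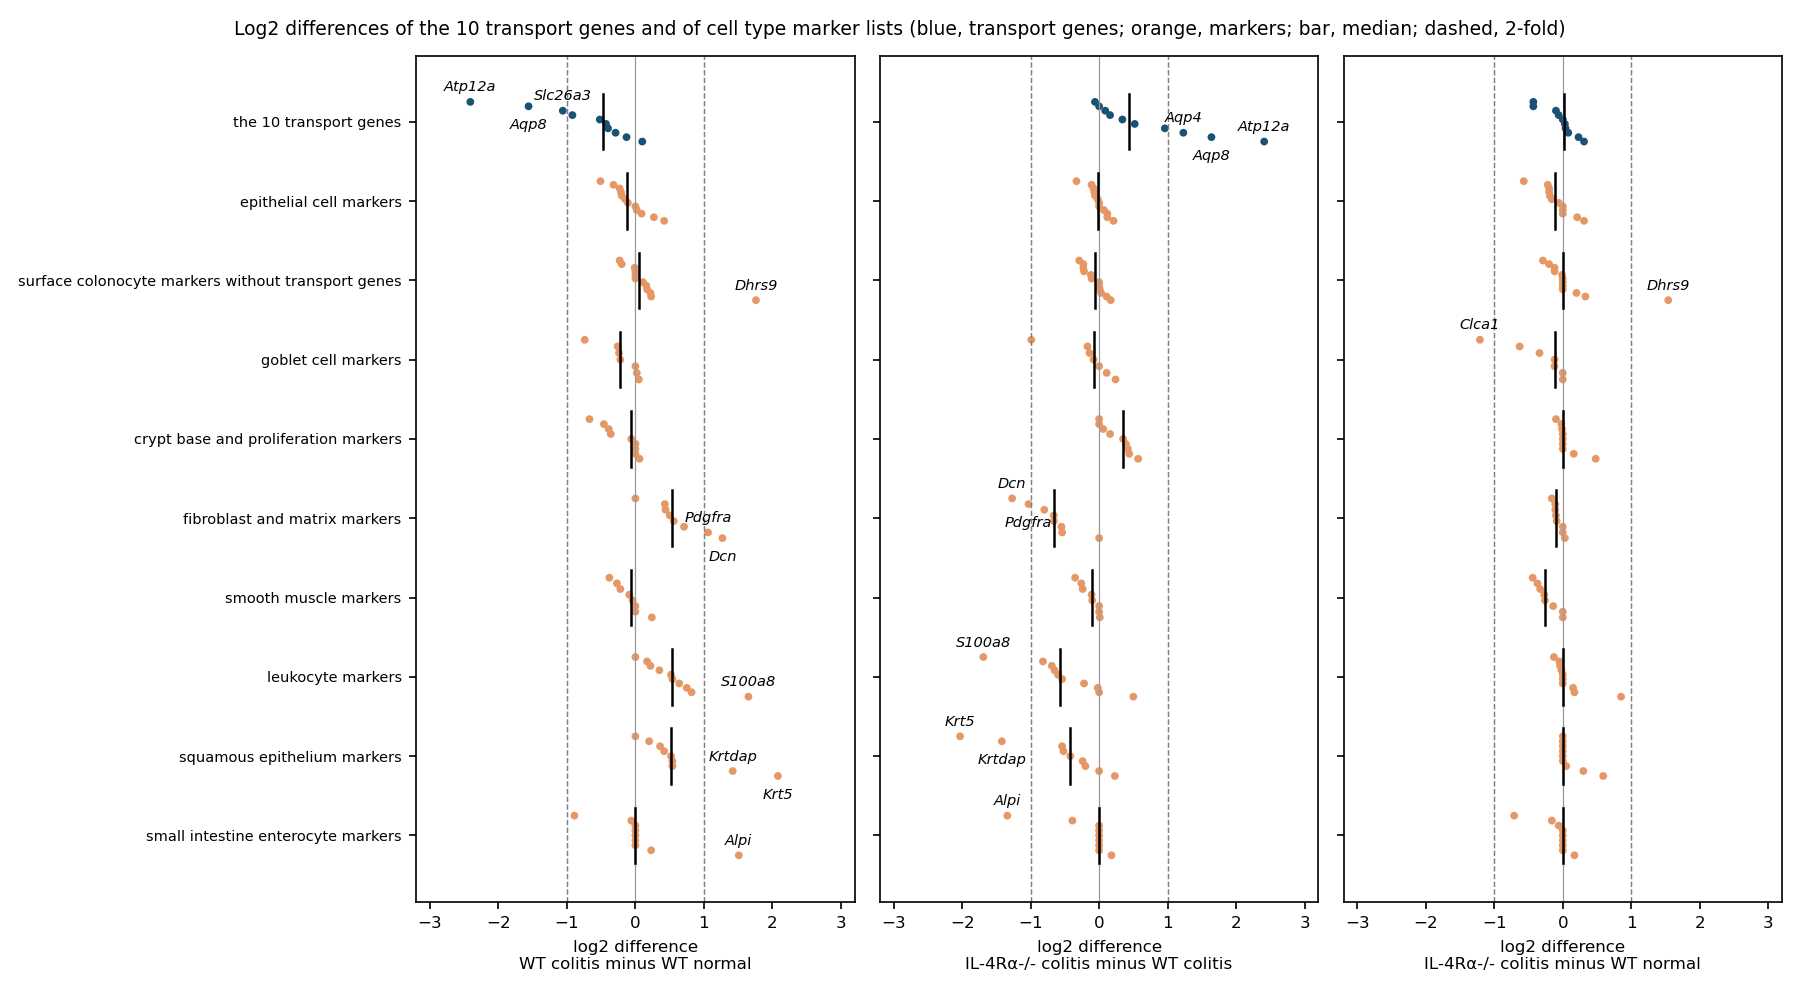
Log2 difference (x axis) of the 10 transport genes in blue and of 9 lists of cell type markers in orange (y axis) in the 3 comparisons, with the list median as a bar, 2-fold as dashed lines and the pancreas markers not drawn. The median of the transport genes is -0.475 in the left panel and 0.43 in the middle one, while those of the epithelial markers are -0.13 and -0.01 and those of the fibroblast and matrix markers are 0.53 and -0.66.

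Fibroblast, leukocyte and squamous markers had medians of the opposite sign, at 0.53, 0.53 and 0.52 for WT colitis minus WT normal and at -0.66, -0.57 and -0.42 between the colitis arrays. Of 8 fibroblast and matrix markers, 2 were over 2-fold above WT normal in the WT colitis pool and the same 2, *Dcn* (9.49, 10.76 and 9.49) and *Pdgfra* (6.45, 7.51 and 6.48), were over 2-fold lower in the IL-4Rα-/- pool than in WT colitis. Their summed linear signal was 2594.6 in the WT normal pool, 4447.0 in the WT colitis pool and 2431.3 in the IL-4Rα-/- pool. Of 10 leukocyte markers, 1 was past 2-fold in each of those comparisons, *S100a8* (2.62, 4.27 and 2.58), with summed signals of 1178.3, 1671.1 and 1158.5. *S100a8* was below background on the arrays other than WT colitis, and with those signals set to background it was 1.71-fold higher there. The leukocyte markers did not all fall between the colitis arrays. *Cd14*, above background on each array, had a difference of 0.5 there and of 0.85 for the IL-4Rα-/- pool minus WT normal. *Cd3e* had the same value on both colitis arrays. Smooth muscle markers, 8 in all, had 0 past 2-fold, and of 7 goblet cell markers *Clca1* was the 1 past it, in the comparison of the IL-4Rα-/- pool with WT normal. Of 9 crypt base and proliferation markers 0 were past 2-fold, with a median of 0.35 between the colitis arrays, where *Axin2*, a Wnt target, had 5.15, 4.48 and 5.05. Of 9 squamous markers, *Krt5* (3.09, 5.17 and 3.14) and *Krtdap* (2.53, 3.95 and 2.53) were over 2-fold higher in WT colitis, or 3.18-fold and 1.37-fold with dim signals set to background, and 5 of the 9 were at or below background even there. The summed linear signal of the 9 was 297.8, 418.5 and 417.2, so the sum, unlike the median, was nearly level between the colitis arrays. The brightest of them, *Sprr1a* (7.86, 8.22 and 8.45), was highest in the IL-4Rα-/- pool. Of 9 small intestinal markers, 5 were at or below background on each array, among them *Lct*, *Sis* and *Fabp6*, and *Alpi* was past 2-fold (5.72, 7.23 and 5.89). *Slc10a2* went the other way in WT colitis, within 2-fold, with 7.24, 6.35 and 6.53. The part of these cell types in the values of the transport genes was not tested.

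The pancreatic transcripts of the WT normal array bear on comparisons with it. *Ctrb1*, chymotrypsinogen, had log2 levels of 10.55 in the WT normal pool, 3.49 in the WT colitis pool and 3.03 in the IL-4Rα-/- pool. In the IL-4Rα-/- pool, where those transcripts were low, the 10 transport genes differed from WT normal by -0.43 to 0.31 on the log2 scale. A difference within 0.5 was common, found in 97.8% of all genes and in 96.7% of genes whose mean was above background. That all 10 lay within it therefore does not set them apart. For 4 of the 10 the WT normal array had the highest value, with differences for the IL-4Rα-/- pool minus WT normal of -0.43 for *Slc9a3*, -0.43 for *Scnn1a*, -0.10 for *Slc26a3* and -0.06 for *Car4*. *Car3* was also highest there, with a difference of -2.33. The part of the pancreatic transcripts in these values was not tested.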

How the data were processed

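RNA was pooled from 3 to 6 mice per group and hybridised to 1 GeneChip per group, the Mouse Gene 1.0 ST. The labels describe Cy3 labelling for another platform, but the probe set numbers are those of the GeneChip. The values that the authors deposited are log2 signals of 28944 probe sets, rounded to 2 decimals. The summary and normalization method and the genome build are not given in the sources used here. Per the platform annotation, 21789 probe sets had 1 gene symbol, 1621 several and 5534 none, and the gene numbers of 21698 of the 21789 were found in RefSeq. The probe set with the highest mean over the 3 arrays stood for a gene, giving 19938 genes. Log2 differences were taken between arrays, and genes more than 2-fold apart as deposited were counted without a test. Background was the 95th percentile over 1210 olfactory and vomeronasal receptor probe sets, and a lower signal was set to it for the folds printed but not for the counts.

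The genes, the 9 transport groups, the marker lists and the motifs were chosen with earlier results of these data known. The rule for named genes took the 10 genes, every transport gene past 2-fold, up to 4 genes of each marker list with the largest differences, *Il4ra*, and the 3 nearest profiles. Further genes were named after their values had been seen, to complete a pathway. Promoters came from RefSeq (GRCm38.p6), with none from chromosome 18. Alternatives were quantile normalization, centring arrays on their medians, an offset of 32 on the linear scale, averaging all probe sets of a gene, leaving out dim genes, a 1.5-fold threshold and, added later, subtracting the median difference of epithelial markers. The counting step was tested on simulated data. Python 3.11.15, numpy 2.4.6, pandas 2.3.3 and matplotlib 3.10.9 were used.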

Additional observations from a re-analysis of the deposited data

How the results depend on the processing

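The 1.5-fold alternative counted genes past 1.5-fold, and the others counted genes past 2-fold. Under all 7 alternatives, the number of the 10 genes past the threshold in use was 2 to 4 lower for WT colitis minus WT normal. It was 3 or 4 higher for the IL-4Rα-/- pool minus WT colitis, and 0 in either direction for the IL-4Rα-/- pool minus WT normal. Averaging probe sets and leaving out dim genes could not change these counts. Each of the 10 genes had 1 probe set and lay above background on each array. The genes of the 10 that crossed 2-fold were *Aqp4* (-1.02 with quantile normalization) and *Slc26a3*. *Slc26a3* was at -0.93 against epithelial markers in WT colitis, and at 1.03 between the colitis arrays with arrays centred on their medians. Among the 114 other transport genes, *Ano1* came within 2-fold in WT colitis with the offset of 32 and with the epithelial setting. Subtracting the median of epithelial markers moved the median of the 10 genes for the IL-4Rα-/- pool minus WT normal from 0.015 to 0.125, put 1 of the 114 other transport genes, *Atp1b3*, past 2-fold higher in WT colitis (0 before), and moved the median of all genes to 0.13 in the first comparison and 0.11 in the last. That setting also moved the shares of all genes past 2-fold from 1.16% higher and 0.456% lower to 1.59% and 0.331% in WT colitis, and from 0.186% and 0.336% to 0.271% and 0.311% in the IL-4Rα-/- pool against WT normal. At 1.5-fold, by construction a looser count, 4 of the 114 were higher and 7 lower in WT colitis (0 and 3 at 2-fold), and 3 were higher and 5 lower in the IL-4Rα-/- pool than in WT colitis (1 and 0 at 2-fold). With quantile normalization, 0.948% of all genes were higher and 0.517% lower in WT colitis, and 0.286% and 0.737% between the colitis arrays. Centring arrays on their medians gave 0.973% and 0.502%, and 0.291% and 0.762%. Against WT normal, the shares in the IL-4Rα-/- pool were 0.191% and 0.341%, and 0.186% and 0.336%. An offset of 32 on the linear scale shrinks differences of dim genes. It left 0.406% of all genes higher and 0.291% lower in WT colitis, and 0.171% and 0.366% between the colitis arrays. In the IL-4Rα-/- pool against WT normal it left 0.0903% and 0.221%. Leaving out genes at or below background gave 1.74% and 0.7%, 0.435% and 1.36%, and 0.298% and 0.499% of 12421 genes, and a 1.5-fold threshold gave 4.11% and 1.08%, 0.687% and 3.33%, and 0.792% and 0.813%, in the same order. Signs of the smallest differences were not stable for *Slc12a2* between the colitis arrays (-0.06 to 0.01) or for *Slc26a3* (-0.12 to 0.01) and *Car4* (-0.06 to 0.05) in the IL-4Rα-/- pool against WT normal. No paired analysis was possible because each group had 1 array. With 1 array per pool, the spread between mice is unknown, and signals near the background level of 3.50 limit what can be read from dim genes.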
